A study of Daphnia magna with 36 samples.

Results

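Adult female Daphnia magna, a freshwater crustacean widely used in toxicity testing, were held for 24 h in zinc sulphate (ZnSO4) at 0.13 mg/L, given by the labels as 1/10 of the LC50, the concentration that kills 50% of the animals. These arrays were taken by their titles and number 6 of the 36 in the series. They came from 3 numbered exposures, each measured on a pair of 2-colour arrays with the dyes exchanged. On every array the RNA of exposed animals was set against RNA of unexposed laboratory animals, and each RNA was extracted whole from 16 pooled daphnids 10 days old, kept at 25 °C. The labels do not say whether 0.13 mg/L is the mass of the salt or of the zinc in it, nor whether the 3 exposures had separate unexposed animals.

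Other groups are used only where the low zinc sulphate group is set against them. They are ZnSO4 at 0.91 mg/L (the LC25, the concentration that kills 25%), ZnO nanoparticles (ZnO NP) at 2.2 mg/L for 1/10 LC50 and at 9.0 mg/L for the LC25, and silica nanoparticles (SiO2 NP, written SiO in some labels) at 1.4 mg/L for 1/10 LC50 and at 5.1 mg/L for the LC25. All were exposed for 24 h against unexposed animals, from females of the same age and pool size. Levels thus match in their stated relation to a lethal concentration and not in mg/L, and whether 1/10 of the LC50 was equally toxic for each toxicant is not given. The groups have 3 to 5 exposures on 6 arrays each, and nothing states that exposures used separate cultures, so p-values measure the spread between these exposures.

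Zinc is an essential metal that many enzymes and DNA-binding proteins hold as a cofactor, and an excess of the free ion is toxic. Animal cells keep free zinc low through transporters in their membranes and through metallothioneins, small cysteine-rich proteins that bind metal and whose genes are commonly induced by it. In daphnids and other freshwater animals, dissolved zinc is also known to compete with the uptake of calcium, which a crustacean needs for its cuticle at each moult. The probes carry only plate positions as identifiers, and 0 of 7680 matched the gene table for this species. None of these genes can therefore be located on the array, and results are given by probe.

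Each value is the authors' log ratio of the 2 RNAs of an array, read here as log2. Neither the base nor the numerator is stated, so a ratio is called positive or negative and not higher or lower in exposed animals. The deposited signs were read as running the same way on both arrays of a dye-swapped pair, and the reading as Cy5 over Cy3 is set beside the results. On the 6 arrays of the group, 78.5% to 85.1% of probes had a value, against 46.7% to 90.5% on the other arrays. A value was present on all 6 arrays for 5049 probes, on 3 to 5 arrays for 1839 probes and on none for 792 probes. No arrays held identical values. The number of exposures limits the precision, since the arrays of an exposure were averaged. Spot brightness was not used here.

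Zinc sulphate at 1/10 LC50 left most probes near a ratio of 1, but 11 of the 5049 probes with complete values had a mean log2 ratio below -1, a ratio of more than 2-fold. None of the 5049 had a mean above 1. The 11 means ran from -1.43 to -1.17. The next probe outside that bound had a mean of -0.92 and the one after it -0.88. At a bound of 0.5, 35 of the complete probes lay below -0.5 and 0 above 0.5, their highest mean being 0.4996. Of the 1839 probes with a value on only 3 to 5 arrays, 4 had a mean below -1 and 1 had a mean above 1. These 11 probes were chosen on these values, so they are described here without a test of the set.

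**Figure D1:**
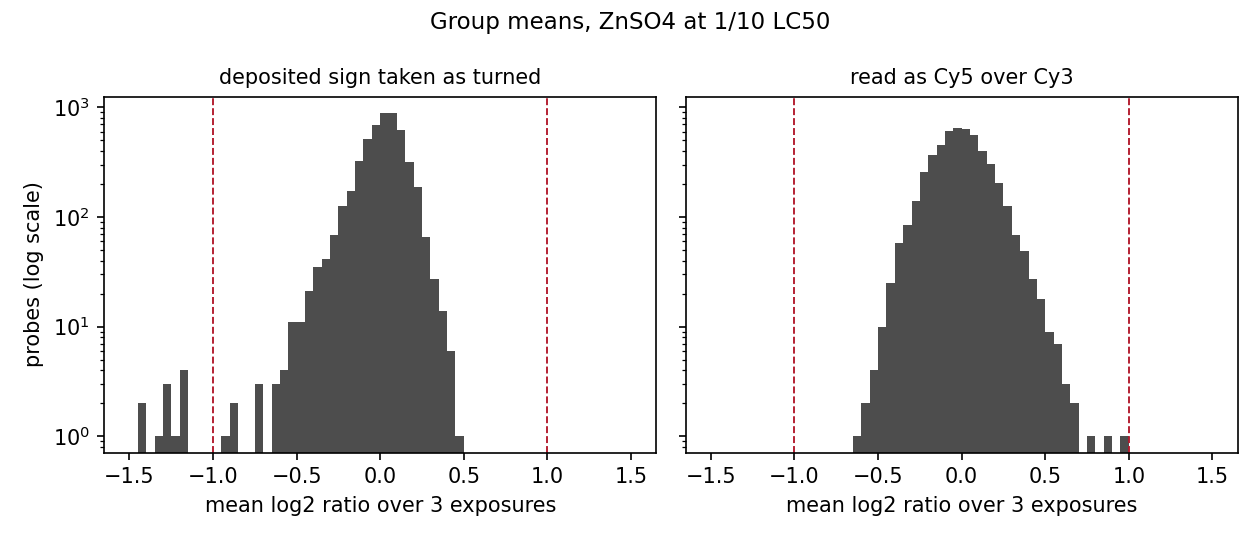
Mean log2 ratio of each probe with a value on all 6 arrays of ZnSO4 at 1/10 LC50 (x axis), over 3 exposures, against the number of probes (y axis, log scale); the dashed lines mark -1 and 1. With the deposited signs taken as turned (left), 11 probes lie below -1 and none above 1, while with values read as Cy5 over Cy3 (right) no probe lies outside the lines.

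All 66 values of the 11 probes, on 6 arrays each, were below 0. They ranged from -2.64 to -0.09. The numbering of the arrays within an exposure, as the titles give it, went with their size. On array 1 of exposures 1, 2 and 3 the median of the 11 probes was -1.68, -1.97 and -2.01, and on array 2 it was -0.73, -0.76 and -0.56. In all 33 combinations of probe and exposure, array 1 gave the lower value, with a median difference of -1.23. The exposed RNA was in Cy5 on array 1 of exposure 1 and in Cy3 on array 1 of exposures 2 and 3, so the larger size was not tied to 1 dye orientation. This concerns size alone. The deposited sign was negative in both orientations, and the labels do not say whether it was turned for the dye, so a part of the dye in these ratios was not tested. What sets the first array of a pair apart was not tested.

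**Figure D2:**
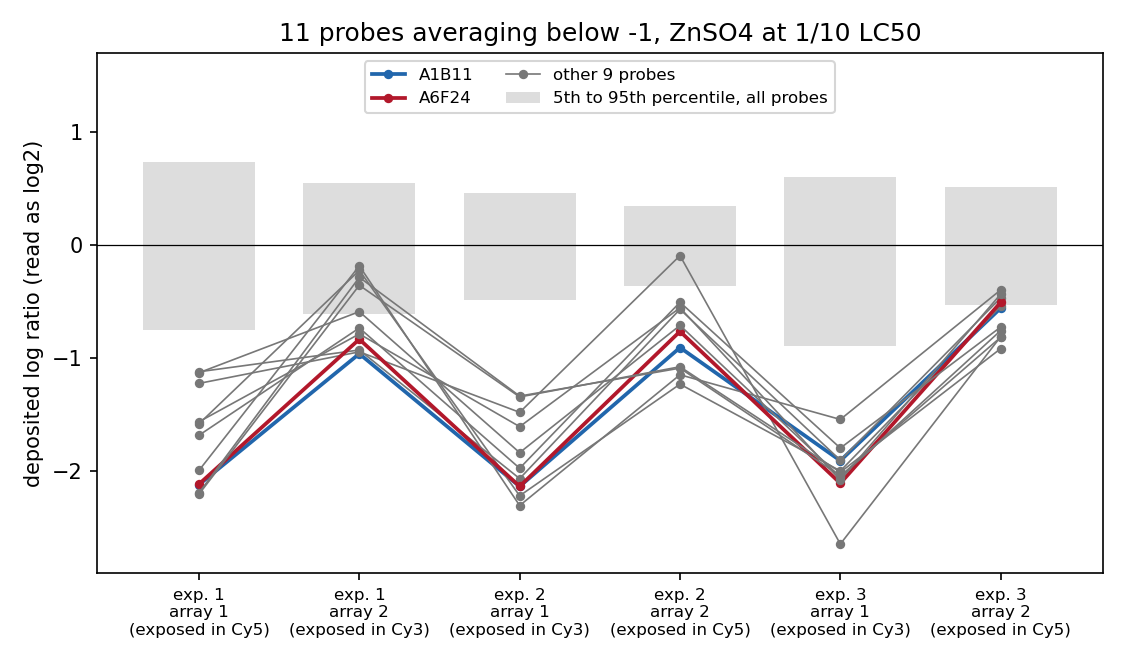
Deposited log ratio (y axis, read as log2) of the 11 probes with a mean below -1 on each of the 6 arrays of ZnSO4 at 1/10 LC50 (x axis), each line being 1 probe and the grey bars the range from the 5th to the 95th percentile of all probes. Every point is below 0, and array 1 of each exposure has medians of -2.01 to -1.68 against -0.76 to -0.56 on array 2.

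Probe A6F24 was the one probe that passed the test over all groups. Its log2 ratios were -2.11 and -0.83 on arrays 1 and 2 of exposure 1, -2.13 and -0.76 in exposure 2, and -2.11 and -0.50 in exposure 3. The exposures thus averaged -1.47, -1.45 and -1.31, a mean of -1.41 ± 0.09 (SD, n = 3). All 3 lay within 0.17 of each other although the arrays within each exposure differed by more than 1. In the limma fit of all 6 groups the ratio of A6F24 was -1.41 ± 0.24 (fitted log2 ± SE, 2.65-fold, 95% confidence interval -1.91 to -0.90), with a Benjamini-Hochberg adjusted p of 0.0492. This 1 probe past the threshold of 0.05 is 0.0182% of the 5495 tested.

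Probe A1B11 had the lowest mean of the group. It gave -2.12 and -0.96 in exposure 1, -2.13 and -0.91 in exposure 2, and -1.91 and -0.56 in exposure 3. Its exposures averaged -1.43 ± 0.17 (SD, n = 3), a size close to that of A6F24. In the fit of all groups it did not pass (-1.43 ± 0.30, fitted log2 ± SE, limma adjusted p = 0.197).

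The spread used by that test is shared with the other groups. A6F24 had an SD between exposures of 0.09 under ZnSO4 at 1/10 LC50, against 0.49 under ZnSO4 at the LC25, 0.80 and 0.33 under ZnO NP at 1/10 LC50 and the LC25, and 0.38 and 0.11 under SiO2 NP at the same levels. With the 3 exposures fitted alone, limma put 8 probes past the threshold, 0.146% of 5495. All 8 were negative, with means between -1.43 and -1.17, and 7 of them belonged to the 11 probes. The remaining probe lacked a value on at least 1 array. In that fit the adjusted p was 0.0116 for both A6F24 and A1B11.

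Leaving out an exposure left the size of A6F24 almost as it was but ended its call. The fitted log2 ratio was -1.38 without exposure 1, -1.39 without exposure 2 and -1.46 without exposure 3, with limma adjusted p of 0.999, 0.998 and 0.292. The call also ended with arrays scaled to one spread (adjusted p = 0.256), with plate medians subtracted (0.112), under a robust prior (0.0531) and with a filter on this group alone (0.0591). A choice made after seeing the arrays was to keep 1 array per exposure. Array 1 alone gave 18 of 5492 probes past the threshold, 15 negative and 3 positive, which included all 11 probes, and a ratio of -2.15 for A6F24. At an unadjusted p below 0.05 it gave 514, more than the share of 0.05 expected with no probe changed. Array 2 alone gave 0 of 5495 with limma, and a ratio of -0.68 for A6F24. Its 189 probes at an unadjusted p below 0.05 were fewer than that share.

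**Figure D3:**
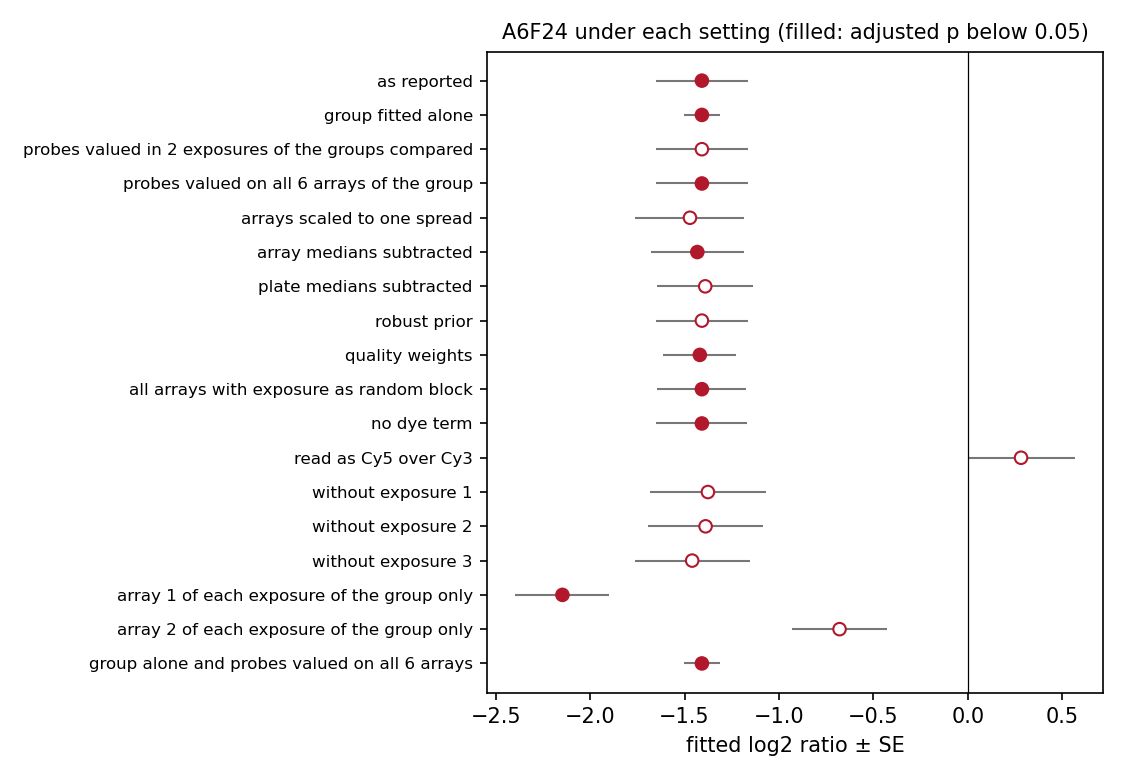
Fitted log2 ratio of A6F24 under ZnSO4 at 1/10 LC50 (x axis, bars are SE) in each setting of the analysis (y axis); filled points have a limma adjusted p below 0.05. The ratio stays between -1.47 and -1.38 in the settings that keep both arrays of each exposure and the deposited sign, and it is 0.28 when values are read as Cy5 over Cy3.

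Most of the 11 probes came from 3 source plates, going by the leading part of their identifiers. Plate A1 held 3, plate A6 held 5, plate A7 held 2 and plate P9D held 1. Plates whose names begin with A supplied 10 of the 11, whereas they supplied 16.5% of all probes with complete values. With the median of each plate subtracted on each array, A6F24 had a ratio of -1.39 against -1.41, and A1B11 -1.41 against -1.43. These are the only probes of the 11 for which that setting is given, and a part of the source plate was not tested.

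The 11 probes also moved together on arrays that played no part in choosing them. Over the 30 arrays of the other groups, which come from 20 exposures and share dye-swapped pairs, the correlation between the 55 pairs of these probes ranged from 0.67 to 0.95, with a median of 0.83. Against the mean of the 11, the median correlation of the 5730 probes with at least 20 values on those arrays was -0.03. Only 6 further probes exceeded 0.8 (0.105%), and all 6 carried plate names beginning with A. Under ZnSO4 at 1/10 LC50 these 6 had means over their arrays between -1.22 and -0.65, all negative, with a median of -1.003. Whether several of these probes carry the same transcript cannot be read from plate positions.

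Fewer of the lesser negative ratios followed that pattern. Of the 24 complete probes with a mean between -1 and -0.5, 4 correlated above 0.5 with the 11 probes over the other arrays, against 1.34% of all probes scored, and their median correlation was 0.16. Plates whose names begin with A supplied 11 of these 24.

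The 11 probes were negative in all 3 exposures of the low zinc sulphate level, while in the other groups their sign varied between exposures. Medians are over all 11 probes except where fewer had a value. Their median was -1.17, -1.27 and -1.27 in the 3 exposures of ZnSO4 at 1/10 LC50, with all 11 probes below 0 in each. Under ZnSO4 at the LC25 the 5 exposures had medians of 0.02 (7 probes valued), -0.89 (8 probes valued), 0.74, 0.35 and 0.89. Under ZnO NP at 1/10 LC50 the medians were -0.33, 0.92, 0.39 (9 probes valued) and -0.89, and at the LC25 they were -0.43, 0.74, 0.18 and 1.14. Silica at 1/10 LC50 gave 0.14, -0.35 and -0.75, and at the LC25 0.14, -0.41, 0.10 and -0.08. Every probe with a value was also below 0 in exposure 2 of ZnSO4 at the LC25 and in exposure 4 of ZnO NP at 1/10 LC50. The same held for exposure 1 of ZnO NP at the LC25 and exposure 3 of silica at 1/10 LC50. The lowest median in the other groups was -0.89, above the 3 medians of the low zinc sulphate level. Single probes did overlap: the lowest was -1.51 in exposure 2 of ZnSO4 at the LC25 and -1.24 in exposure 4 of ZnO NP at 1/10 LC50, while the probes of the low zinc sulphate exposures ran from -1.73 to -0.78. Since the probes were picked for their low values in this group, that separation of medians is a description and not evidence for it.

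**Figure D4:**
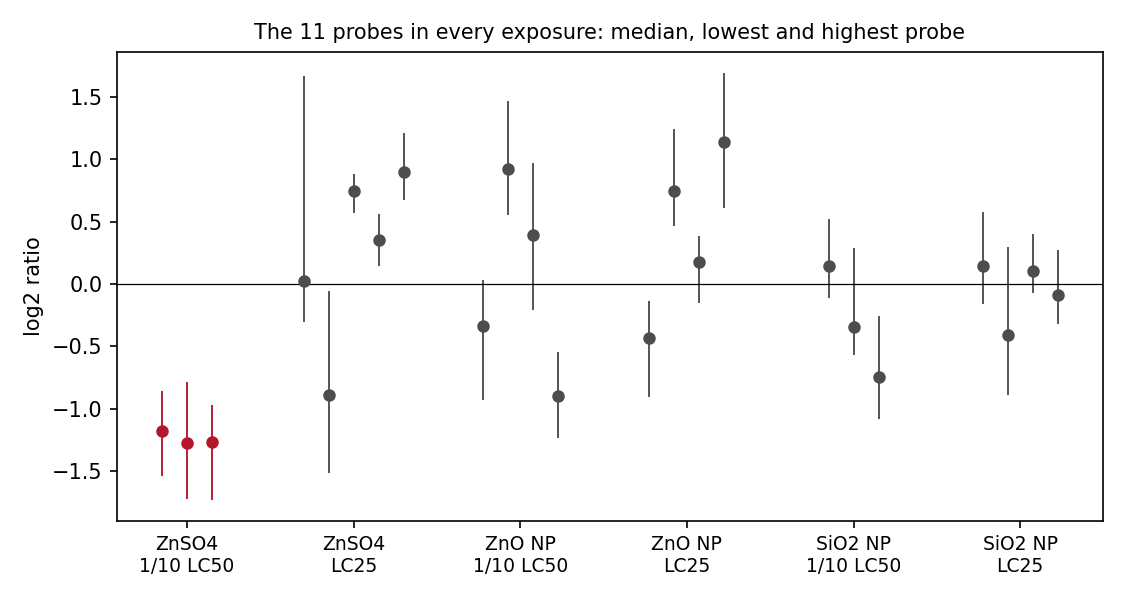
Log2 ratio (y axis) of the 11 probes in every exposure, by group (x axis); points are the median of those of the 11 probes with a value in 1 exposure (7, 8 and 9 probes in 3 exposures, all 11 in the rest) and bars run from the lowest to the highest probe. The 3 exposures of ZnSO4 at 1/10 LC50 have medians between -1.27 and -1.17, while the medians of the other groups run from -0.89 to 1.14.

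On the positive side no probe passed in any fit that used both arrays of each exposure. P11AH1 had log2 ratios of 1.25 and 0.42 in exposure 1, 0.35 and 0.11 in exposure 2, and 0.43 and 0.03 in exposure 3. It was positive on all 6 arrays, but exposure 1 averaged 0.84 against 0.23 in both others (mean 0.43 ± 0.35, SD, n = 3; limma adjusted p = 0.9998). P9DA9 gave 1.38 and 0.05, 0.22 and -0.01, and 0.49 and 0.09 in exposures 1 to 3. Its mean was 0.37 ± 0.32 (SD, n = 3; limma adjusted p = 0.9998). For both probes a single array, array 1 of exposure 1, held a value over 2 times that of any other. Without exposure 1 the fitted ratios were 0.23 for P11AH1 and 0.20 for P9DA9.

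An unadjusted p below 0.05 was found for 117 of 5495 probes (2.13%), 67 negative (1.22%) and 50 positive (0.91%). With no probe changed, a share of 0.05 would be expected below that cut-off, so the count by itself is no sign of a change. The fit also bounds what was not seen, but only if the deposited signs run the same way on both arrays of a pair. The labels do not say so, and the bounds below do not apply to the reading as Cy5 over Cy3. For 5346 probes (97.3%) the 95% confidence interval of the log2 ratio lay within -1 and 1, so a change of more than 2-fold in either direction was outside the interval. For 3937 probes (71.6%) it lay within -0.5 and 0.5. The median half-width of the interval was 0.32.

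Agreement among the 6 arrays over all probes was weak. The arrays of exposures 1, 2 and 3 correlated with their dye-swapped partner at r = -0.12, 0.14 and 0.08 across probes. Between exposures, arrays of the same dye orientation correlated at -0.08 to 0.31 (median 0.05, 6 pairs) and arrays of opposite orientation at -0.13 to -0.04 (median -0.08, 6 pairs). Averaged over each pair, exposures 1 and 2 correlated at 0.17, exposures 1 and 3 at -0.07 and exposures 2 and 3 at -0.09. Probes of one array are not independent, and these coefficients carry no p-value. All 3 exposures had one sign for 1307 of the 5049 probes (25.9%), and all 6 arrays did for 160 (3.17%), of which 103 were positive and 57 negative. Signs at random would give a share of 0.25 for 3 exposures. Both shares are near what random signs give, so these counts do not mark probes as responding.

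Read as Cy5 over Cy3, the exposures agreed more over the bulk of the probes, while none of the 11 kept a mean beyond 2-fold. The 3 exposures then correlated at 0.41, 0.06 and 0.11, all 3 had one sign for 1786 probes (35.4%) and all 6 arrays for 345 (6.83%). None of the 5049 complete probes then had a mean below -1 or above 1, and with limma 0 passed the threshold. Of 5495 probes tested, 240 had an unadjusted p below 0.05, less than the share of 0.05 expected with no probe changed. A6F24 turned to 0.28 and A1B11 to 0.24 under that reading, with an adjusted p of 0.997 for both. The ratios of the 11 probes were thus large only where both arrays of a pair were taken to run the same way. Agreement between exposures over all probes was higher with one orientation turned. Within the pairs of exposures 1, 2 and 3 that reading gave r = 0.12, -0.14 and -0.08, so agreement rose in exposure 1 and fell in exposures 2 and 3. The labels do not say which reading holds.

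The spread between exposures was small in this group. Its median SD was 0.17 on the log2 scale over probes with complete values, and 0.18 over the 6888 probes measured in 2 or 3 exposures. By the latter count the median SD was 0.32 under ZnSO4 at the LC25, 0.21 and 0.27 under ZnO NP at 1/10 LC50 and the LC25, and 0.15 and 0.22 under SiO2 NP at the same levels. With array 1 of each exposure in place of the pair, the SD of the low zinc sulphate group was 0.31. The exposures of this group are all averages of a pair, whereas other groups hold single arrays, and the SDs were not tested against each other.

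A direct test of the low against the high zinc sulphate level asked whether the dose altered the response. With limma, 0 of 5495 probes (0%) passed, and 565 (10.3%) had an unadjusted p below 0.05. That is more than the share of 0.05 expected with no difference, but the excess was not tested. Read as Cy5 over Cy3 the count was 249 of 5495, less than that share. A6F24 came nearest. It averaged -1.41 ± 0.09 (SD, n = 3) at the lower level and 0.35 ± 0.49 (SD, n = 5) at the LC25, where 1 of 5 exposures was negative. The fitted difference was -1.81 ± 0.32 (log2 ± SE, 95% confidence interval -2.46 to -1.15, limma adjusted p = 0.0561). In the opposite direction P6CH3 had the lowest p. It averaged 0.27 ± 0.13 (SD, n = 3) at the lower level and -0.37 ± 0.17 (SD, n = 5) at the higher, a difference of 0.67 ± 0.15 (log2 ± SE, limma adjusted p = 0.130).

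That comparison was sensitive to the fit. With both zinc sulphate groups alone in the model 6 probes passed, all with the more negative ratio at 1/10 LC50, and 11 passed without exposure 3 of the LC25 group. The median confidence half-width of the differences was 0.42.

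Against ZnO NP at the same fraction of the LC50, 0 probes (0%) passed with limma, and 91 (1.66%) had an unadjusted p below 0.05. That is less than the share of 0.05 expected with no difference. A6F24 averaged -1.41 ± 0.09 (SD, n = 3) under zinc sulphate and 0.05 ± 0.80 (SD, n = 4) under ZnO NP, where 2 of 4 exposures were negative. The fitted difference was -1.39 ± 0.33 (log2 ± SE, 95% confidence interval -2.09 to -0.70, limma adjusted p = 0.9996). Here, against ZnSO4 at the LC25 and against silica, A6F24 was picked for the lowest p among negative differences. It had also been named for its ratio in this group, so its unadjusted intervals are a description only. P9AC9, with the lowest p among positive differences, averaged 0.24 ± 0.14 (SD, n = 3) under zinc sulphate and -0.22 ± 0.14 (SD, n = 4) under ZnO NP. The exposures did not overlap, but P9AC9 was picked for its p in this comparison, so that is a description only. Its difference was 0.54 ± 0.16 (log2 ± SE, limma adjusted p = 0.9996).

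Against SiO2 NP at 1/10 LC50, 0 probes (0%) passed with limma, and 74 (1.35%) had an unadjusted p below 0.05, again less than the share of 0.05 expected with no difference. A6F24 averaged -1.41 ± 0.09 (SD, n = 3) under zinc sulphate and -0.10 ± 0.38 (SD, n = 3) under silica, a fitted difference of -1.31 ± 0.34 (log2 ± SE, 95% confidence interval -2.03 to -0.60, limma adjusted p = 0.9999). P1DC2 averaged 0.33 ± 0.18 (SD, n = 3) under zinc sulphate and -0.33 ± 0.18 (SD, n = 3) under silica. Its difference was 0.67 ± 0.21 (log2 ± SE, limma adjusted p = 0.9999). The exposures of P1DC2 did not overlap, but it too was picked for the lowest p among positive differences, so that is a description only. The median confidence half-widths were 0.44 for ZnO NP and 0.45 for silica, and even the differences of A6F24, 2.63-fold from ZnO NP and 2.48-fold from silica, did not pass. A missed threshold does not show that the toxicants acted alike. All these differences share the low zinc sulphate arrays, and unexposed RNA may be shared as well.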

How the data were processed

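The authors deposited 1 log2 ratio per spot and array (base assumed; per the labels, Cy3 and Cy5 carried exposed and unexposed RNA). Scanner, background correction, normalization and numerator are not given in the sources used here; array means lay within 0.0209 of 0. Arrays of 1 exposure were averaged, giving 23 exposures (13 pairs, 10 single arrays). limma 3.58.1 in R 4.3.3 (lmFit, eBayes) fitted 6 groups together with a dye term for single arrays, over the 5495 probes measured in 2 or more exposures of each group. P-values are two-sided and adjusted by Benjamini-Hochberg, with a threshold of 0.05. The fit was tested on simulated exposures with known shifts and independent noise. That simulation held no doubt over signs and no difference between the arrays of a pair, so it does not bear on either. At most 2 probes per direction were named against unexposed: among complete probes with one sign in 3 exposures, those past the threshold, then those past it with the group fitted alone, then the lowest p. For each difference the lowest p per direction was named. Members and lists were chosen with earlier results of these data known.

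Deviations of same-numbered exposures from their group means correlated at 0.14, 0.28 and 0.49 between ZnSO4 and SiO2 NP at 1/10 LC50. With ZnSO4 at the LC25 they correlated at -0.06, -0.03 and -0.15, and with ZnO NP at 1/10 LC50 at 0.03, 0.29 and -0.25. The labels do not say what an exposure number marks, so the reported fit did not pair exposures in any comparison. A pairing by number was run only as an alternative setting.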

Additional observations from a re-analysis of the deposited data

Results flagged for a closer look

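P9DA9 was flagged because exposure 3 of ZnO NP at 1/10 LC50, at -0.27, lay far from the nearest of the other 3 exposures, at 0.07. Chance flags about 1 in 20 groups in this way. Several probes were flagged because every exposure of ZnSO4 at 1/10 LC50 was positive and every exposure of the other group negative. For P11AH1 the difference of means was 0.70 from ZnSO4 at the LC25 (limma adjusted p = 0.279) and for P6CH3 0.64 (0.130). P9DA9 differed by 0.54 from SiO2 NP at the LC25 (0.902), P9AC9 by 0.46 from ZnO NP at 1/10 LC50 (0.9996) and P1DC2 by 0.67 from SiO2 NP at 1/10 LC50 (0.9999). None of these differences passed the threshold. The flagged probes had been picked for a low p in these data, and the share of all probes with such a split of signs was not counted.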

How the results depend on the processing

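The count of 1 probe against unexposed was 8 with the group fitted alone (also 8 with complete probes only, added after seeing the data), 12 with arrays entered singly in a random block per exposure and 6 with quality weights, all negative. It was 0 with a filter on this group alone, arrays scaled to one spread, plate medians subtracted, a robust prior or values read as Cy5 over Cy3, and 0 to 1 without 1 exposure, the 1 being a different probe (0 shared). Keeping array 1 or array 2, added after seeing the data, gave 18 and 0. Read as Cy5 over Cy3, A6F24 was 0.28 and A1B11 0.24, and the share of probes with one sign in all exposures was 35.4%; with array 1 the median SD was 0.31. The count of 0 between zinc sulphate levels was 6 with both groups alone, 1 with complete probes, 2 with array medians subtracted, 12 with a random block and 1 without the dye term, and 0 to 11 without 1 exposure of either group. Against ZnO NP it was 1 with quality weights and 0 to 1 without 1 exposure. With exposure number as a replicate block the counts were 0 in all 3 comparisons, as without it, and no call was altered. The cause of these shifts was not tested. With 3 exposures, an exact sign-flip test cannot go below 0.25.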
